A study of Mus musculus with 36 samples.

Results

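The 42 genes described here drive, copy for, or restrain cell division, and were followed in the livers of mice that lack a fat-mobilising enzyme in adipose tissue and of their controls. They were chosen by symbol, with earlier results of these data known. A gene entered if a probe of the array carried its name. The probe with the highest mean signal over all 36 arrays stood for it. They are 42 of 37074 gene names on the array. By role they comprise 12 genes of proliferation and mitosis, 10 of the replicative helicase, its clamp and nucleotide supply, 8 G1 cyclins and kinases, 2 E2F factors, and 10 genes of arrest and stress. Of these, 39 passed the filter on dim probes and were tested, and the remaining 3 (Cdk1, Bub1 and Ccne2) are given by their detection only.

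Each array measured the liver RNA of 1 male C57Bl/6J mouse with a single-colour Agilent oligonucleotide array, and 6 mice formed each of 6 groups. AAKO mice lack ATGL, the lipase that starts triglyceride breakdown, in white adipose tissue, and CTRL mice are their controls. Each genotype was studied fed freely, after a fast of 24 h, or fed and given CL316243. That compound activates the beta 3 adrenergic receptor, through which adipocytes release fatty acids. The agonist was given by gavage at 3 mg/kg in 0.5% carboxymethyl cellulose at Zeitgeber time 10, where time 0 is lights on, and livers of all 36 mice were taken at Zeitgeber time 16. The promoter that drives the deletion, the genotype of the controls and the age of the mice were not given in the sources used here. Per the labels, the fed groups came from experiment 2 and the fasted and agonist-treated groups from experiment 1, and wherever a fed group is compared with another condition the experiment and the condition cannot be told apart. A gavage was stated for the agonist groups only, so agonist and gavage cannot be told apart either. Comparisons of the genotypes within a condition stayed within 1 experiment.

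A cell that leaves rest makes D-type cyclins, which with CDK4 and CDK6 release the E2F transcription factors. E2F then raises cyclin E and the replication genes, among them the MCM helicase, and the mitotic cyclins and kinases follow before division. The CDK inhibitors p21 and p27, the GADD45 proteins and the WEE1 kinase hold this sequence back, and most hepatocytes of an adult liver rest outside the cycle.

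Levels below are log2 of the signal minus log2 of the array's own 75th percentile, so that 0 is the brightness of that percentile. Because probes differ in efficiency, the levels of different genes are not compared. Tests used limma over 24102 genes, with Benjamini-Hochberg adjustment, and a gene is said to have changed, risen or fallen at an adjusted p under 0.05. Values after ± are standard errors (SE) of the fit, and every group has 6 arrays. Between 35770 and 39868 spots per array were well above background, and 37 of the 42 genes were so on all 36 arrays. The summed signal of hepatocyte markers lay between 4294 and 5337 times the 75th percentile in every array and that of B cell markers between 0.383 and 1.31. CTRL fasted replicate 2 stood apart: on the first principal component of all genes (41.9% of the variance) it lay at 80.9, against 16.7 to 28.9 for the other CTRL fasted arrays and 102 to 110 for AAKO fasted. Of 113 member calls that use its group, 6 were lost without it. Those of the genes described in full are given beside the result. In whole liver, fewer cells that express a gene and less RNA per cell cannot be told apart.

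Promoters of 6 members are shown: Aurka and Cdc20 for mitosis, Mcm3 and Mcm5 for replication, Gadd45b and Gadd45g for stress. They are examples and do not stand for all promoters of their role. Each is the 300 bases at the transcription start, most of them upstream of it, printed 5′ to 3′ from RefSeq on GRCm38.p6. Capitals mark TTTGAA or TTCGAA (the cell cycle homology region of mitotic genes), CCAAT, TTTNNCGC (an E2F core) and CACGTG (an E-box), each on either strand. Overlapping matches are merged. All 6 hold such matches. The promoters of Cdkn1a, the member with the largest called difference, and of Ccne1 hold none, and that of Gadd45a holds CCAAT only.
Aurka promoter, chr2:172370521-172370820 (minus strand): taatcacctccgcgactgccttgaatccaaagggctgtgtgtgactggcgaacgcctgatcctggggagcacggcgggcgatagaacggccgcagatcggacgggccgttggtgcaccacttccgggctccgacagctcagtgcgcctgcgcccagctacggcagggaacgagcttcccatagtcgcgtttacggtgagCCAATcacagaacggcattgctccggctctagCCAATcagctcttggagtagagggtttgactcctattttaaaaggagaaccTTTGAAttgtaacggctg
Cdc20 promoter, chr4:118437294-118437593 (minus strand): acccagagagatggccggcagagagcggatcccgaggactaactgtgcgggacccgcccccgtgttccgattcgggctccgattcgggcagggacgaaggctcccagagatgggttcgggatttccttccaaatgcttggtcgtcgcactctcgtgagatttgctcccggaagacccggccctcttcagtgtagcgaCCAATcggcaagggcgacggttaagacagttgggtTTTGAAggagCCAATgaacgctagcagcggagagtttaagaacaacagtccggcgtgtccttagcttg
Mcm3 promoter, chr1:20820263-20820562 (minus strand): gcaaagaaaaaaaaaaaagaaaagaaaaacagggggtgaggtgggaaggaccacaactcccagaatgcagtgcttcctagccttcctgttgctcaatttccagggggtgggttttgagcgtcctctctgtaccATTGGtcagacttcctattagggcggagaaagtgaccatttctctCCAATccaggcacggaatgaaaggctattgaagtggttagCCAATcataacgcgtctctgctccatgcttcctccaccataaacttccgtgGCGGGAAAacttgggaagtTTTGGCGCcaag
Mcm5 promoter, chr8:75109259-75109558 (plus strand): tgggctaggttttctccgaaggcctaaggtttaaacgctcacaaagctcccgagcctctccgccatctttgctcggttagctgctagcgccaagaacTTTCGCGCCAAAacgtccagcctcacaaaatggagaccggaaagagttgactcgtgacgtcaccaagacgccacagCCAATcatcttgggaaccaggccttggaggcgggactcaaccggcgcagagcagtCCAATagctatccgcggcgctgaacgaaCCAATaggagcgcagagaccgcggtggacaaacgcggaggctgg
Gadd45b promoter, chr10:80929841-80930140 (plus strand): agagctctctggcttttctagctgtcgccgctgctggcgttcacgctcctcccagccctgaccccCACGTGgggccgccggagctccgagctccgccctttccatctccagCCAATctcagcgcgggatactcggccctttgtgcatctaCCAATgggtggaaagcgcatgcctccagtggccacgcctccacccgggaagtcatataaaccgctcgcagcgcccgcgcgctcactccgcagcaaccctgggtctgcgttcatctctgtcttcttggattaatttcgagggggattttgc
Gadd45g promoter, chr13:51846425-51846724 (plus strand): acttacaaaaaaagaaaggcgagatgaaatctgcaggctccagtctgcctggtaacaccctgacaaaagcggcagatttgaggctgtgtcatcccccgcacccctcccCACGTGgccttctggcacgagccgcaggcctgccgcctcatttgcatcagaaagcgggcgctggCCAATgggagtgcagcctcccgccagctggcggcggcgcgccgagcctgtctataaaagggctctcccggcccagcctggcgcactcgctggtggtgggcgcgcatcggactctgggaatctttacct
Of the 42 genes, 35 had a promoter in the table. A gene counted if any of its promoters matched, whereas the shares of all are per promoter. The TTTGAA element occurred in 7 of 10 mitotic genes, against 17.9% of 32851 mouse promoters of the same length. CCAAT occurred in 9 of those 10 and in 8 of 9 genes of the replication group, against 37.4% of all promoters. The E2F core occurred in 5 of 9 replication genes, against 5.17% of all promoters, and in Mcm3 and Mcm5 it lies as printed. CACGTG occurred in 3 of 9 arrest and stress genes and in 2 of 5 G1 cyclin and kinase genes, against 7.15% of all promoters. In the mitotic genes the E2F core occurred in 1 of 10 and CACGTG in 0 of 10. Other sequences were searched as well. Among them TTATGTAA, TTACGTAA and GTAAACAA each occurred in 0 of 35 genes, against 0.938%, 0.119% and 1.23% of all promoters. These matches describe letters and were not tested as binding sites.

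In fed mice no member passed the test between the genotypes, while in fasted mice most called members were higher in AAKO and after CL316243 most were lower. Between AAKO and CTRL fed mice limma called 0 of the 39 tested members, 1 had an unadjusted p under 0.05, and 0.0788% of all genes were called. The smallest adjusted p was 0.722, and the largest difference was that of Gadd45g at 0.87 ± 0.72. In fasted mice 23 members differed, 18 higher and 5 lower in AAKO, or 59% against 49.2% of all genes. Their median difference was 0.32, against -0.03 for all genes. After CL316243, 12 members differed, 1 higher and 11 lower in AAKO, or 30.8% against 24.6% of all genes. By direction, 21.9% of all genes were higher and 27.3% lower in AAKO when fasted, and 13% were higher and 11.6% lower after CL316243. Arrays of the genotypes did not overlap for 0 members when fed (0.693% of all genes), for 7 when fasted (21.2%) and for 6 after CL316243 (11.3%).

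The contrast that changed the largest share of members was fasting against CL316243 in CTRL mice. There 29 of 39 members differed (74.4%, against 37.1% of all genes), 6 higher and 23 lower in fasted mice (17.8% and 19.3% of all genes), with a median of -0.57. In AAKO mice the same contrast called 20 members (51.3%, against 60% of all genes), 11 higher and 9 lower (25.9% and 34.1% of all genes), with a median of 0.07. Against fed mice, fasting changed 25 members in CTRL (64.1%, against 43.8%), 10 up and 15 down (19.7% and 24.1% of all genes). In AAKO it changed 26 (66.7%, against 63.6%), 14 up and 12 down (27.5% and 36.1% of all genes). CL316243 against fed changed 11 members in CTRL (28.2%, against 23.2%), 7 up and 4 down (10.5% and 12.7% of all genes). In AAKO it changed 15 (38.5%, against 31.4%), 7 up and 8 down (15.5% and 15.9% of all genes). The genotype difference itself was larger or smaller when fasted than after CL316243 for 20 members (51.3%, against 31.8% of all genes), 18 of them upward and 2 downward (13.3% and 18.5% of all genes). Relative to the fed state it changed with fasting for 16 members (41%, against 33.6% of all genes), 12 upward and 4 downward (15% and 18.6%), and with CL316243 for 5 (12.8%, against 10.9%), 0 upward and 5 downward (6.24% and 4.64%). In all, 37 of the 39 members were called in at least 1 of 12 contrasts, and Birc5 and Plk1, an inhibitor of apoptosis with a mitotic role and a mitotic kinase, were called in none.

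Fasted and fed arrays did not overlap for 14 members in CTRL (22.8% of all genes) and 13 in AAKO (42.7%), and agonist-treated and fed arrays for 4 (12.3%) and 6 (14.9%). Fasted and agonist-treated arrays did not overlap for 14 members in CTRL (17.9% of all genes) and 13 in AAKO (37.3%).

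**Figure D1:**
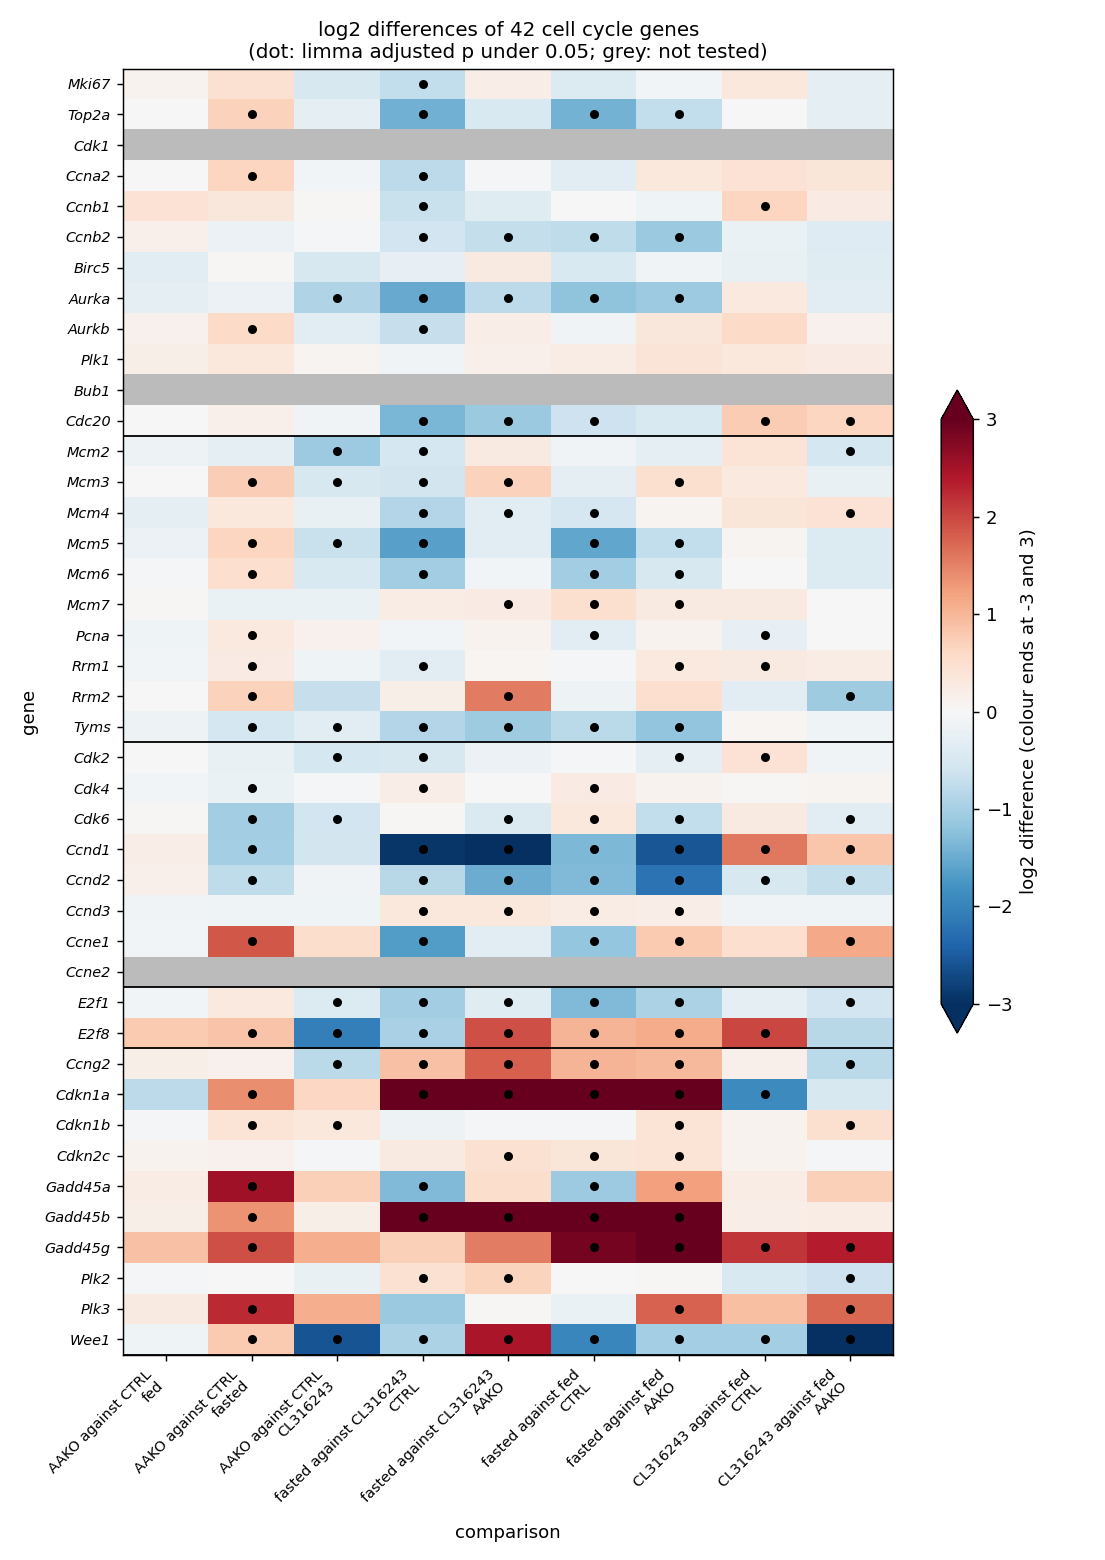
Log2 differences of the 42 members (vertical, by role) in 9 comparisons (horizontal); colour gives the difference from blue (lower) to red (higher) with ends at -3 and 3, dots mark a limma adjusted p under 0.05, and grey marks the untested Cdk1, Bub1 and Ccne2. The fed genotype column has no dot, and the column of fasted against CL316243 in CTRL has 29, of which 23 are in blue cells.

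Ranking the 6 group means of each tested member showed where the extremes lay. CTRL mice given CL316243 held the highest mean of 16 members, AAKO fasted mice that of 10, and the other groups that of 2 to 5 each. The lowest mean was in CTRL fasted mice for 16 members, in AAKO mice given CL316243 for 8 and in AAKO fasted mice for 7. Fed mice held the lowest mean of 5 members in CTRL and of 2 in AAKO, and CTRL mice given CL316243 that of 1. All genes were not ranked in this way, so these counts are not read as particular to the members.

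The genes of arrest and stress held the largest differences of the set. In fasted mice 7 of 10 were higher in AAKO than in CTRL and 0 lower (21.9% and 27.3% of all genes), with a median difference of 1.06. On fasting, 8 of 10 rose and 1 fell in AAKO (27.5% and 36.1% of all genes). In CTRL 5 rose and 2 fell (19.7% and 24.1% of all genes). For 6 of the 10 the change on fasting differed between the genotypes, each time in the upward direction for AAKO (15% of all genes). After CL316243 1 of the 10 was higher and 2 were lower in AAKO, near the 13% and 11.6% of all genes.

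Cdkn1a encodes p21, a CDK inhibitor that p53 and other stress pathways induce. Its lowest, median and highest levels were -1.16, -0.40 and 0.04 in CTRL fed mice and 1.73, 3.61 and 4.98 in CTRL fasted mice. In AAKO they were -2.68, -1.23 and -0.30 when fed and 4.57, 4.83 and 5.18 when fasted. Fasted and fed arrays did not overlap in either genotype. The rise was 15.5-fold in CTRL (3.96 ± 0.40, limma adjusted p = 1.42e-09) and 71.5-fold in AAKO (6.16, adjusted p = 1.63e-14), and the difference between these responses was called (2.20 ± 0.56, adjusted p = 0.00261). Fasted AAKO mice were 1.41 ± 0.40 above fasted CTRL mice (limma adjusted p = 0.00377), with overlap only through CTRL replicate 2, the highest CTRL array. CL316243 went the other way in CTRL: levels were -2.99, -2.63 and -1.15, a fall by 1.90 from fed (limma adjusted p = 0.000656). In AAKO given CL316243 they were -2.59, -1.78 and -1.10, which was 0.48 below fed and not called (limma adjusted p = 0.402).

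The 3 GADD45 genes encode small stress-induced proteins of growth arrest and DNA repair, and they did not move alike. Gadd45b lay at -2.21, -1.53 and -1.28 in CTRL fed mice and at 1.17, 1.46 and 3.85 in CTRL fasted mice, where replicate 2 was the highest array. In AAKO it lay at -2.03, -1.39 and -0.88 when fed and at 2.76, 3.18 and 3.52 when fasted. All fasted arrays were above all fed arrays of their genotype, by 10.7-fold in CTRL (3.42 ± 0.32, limma adjusted p = 2.81e-10) and 24.1-fold in AAKO (4.59, adjusted p = 7.25e-14). The genotypes overlapped when fasted through that 1 CTRL array, with AAKO higher by 1.34 ± 0.32 (limma adjusted p = 0.000706) and by 1.76 without it (adjusted p = 8.7e-08). The interaction with fasting was 1.17 ± 0.45 (limma adjusted p = 0.0422), a call lost on leaving out any of 16 of the 24 arrays (adjusted p up to 0.0814), whereas it was 1.60 without CTRL fasted replicate 2 (adjusted p = 0.000118). With CL316243 Gadd45b lay at -2.19, -1.33 and -0.65 in CTRL and -1.64, -1.26 and -0.43 in AAKO, and neither difference from fed was called (0.21, limma adjusted p = 0.697, and 0.23 ± 0.32, adjusted p = 0.644).

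Gadd45a fell on fasting in CTRL and rose in AAKO. The CTRL levels were -0.97, -0.53 and -0.06 when fed and -2.27, -1.86 and -0.08 when fasted (-1.10 ± 0.41, limma adjusted p = 0.0281). This CTRL call was lost without CTRL fasted replicate 1 (-1.04, adjusted p = 0.0534), 3 (-1.04, adjusted p = 0.0534) or 4 (-0.90, adjusted p = 0.0825), or CTRL fed replicate 3 (-0.99, adjusted p = 0.0637). The AAKO levels were -1.16, -0.51 and 0.75 when fed and -0.17, 0.97 and 2.49 when fasted (1.24 ± 0.41, limma adjusted p = 0.00858). Fasted AAKO mice were thus 5.86-fold above fasted CTRL mice (2.55 ± 0.41, limma adjusted p = 4e-06), with overlap only through CTRL replicate 2, the highest CTRL array. The interaction with fasting was 2.33 ± 0.57 (limma adjusted p = 0.00186). After CL316243 CTRL arrays lay at -1.39, -0.28 and 0.62 and AAKO arrays at -0.71, 0.28 and 1.57, an overlapping difference of 0.72 that was not called (adjusted p = 0.209).

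Gadd45g was the most variable of the 3 in fed mice, at 1.97, 2.57 and 7.13 in CTRL and 2.55, 3.96 and 6.50 in AAKO. Fasted CTRL arrays lay at 5.22, 6.42 and 7.13 and fasted AAKO arrays at 7.83, 8.11 and 8.45, with no overlap between the genotypes. The difference of 1.92 ± 0.72 (3.79-fold, limma adjusted p = 0.0258) lost its call without CTRL fasted replicate 3 (1.74, adjusted p = 0.0602) or 4 (1.72, adjusted p = 0.0619). Fasting raised Gadd45g by 2.86 in CTRL (limma adjusted p = 0.00146) and 15-fold in AAKO (3.91, adjusted p = 1.7e-05), with no call for the interaction (1.05, adjusted p = 0.464). It was also above fed after CL316243 in both genotypes. In CTRL the rise was 2.14 (limma adjusted p = 0.0282), a call lost on leaving out any of 7 of the 12 arrays (1.84 to 2.07, adjusted p up to 0.0816). In AAKO, where arrays lay at 4.18, 7.43 and 7.64, it was 2.36 (limma adjusted p = 0.0116).

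**Figure D2:**
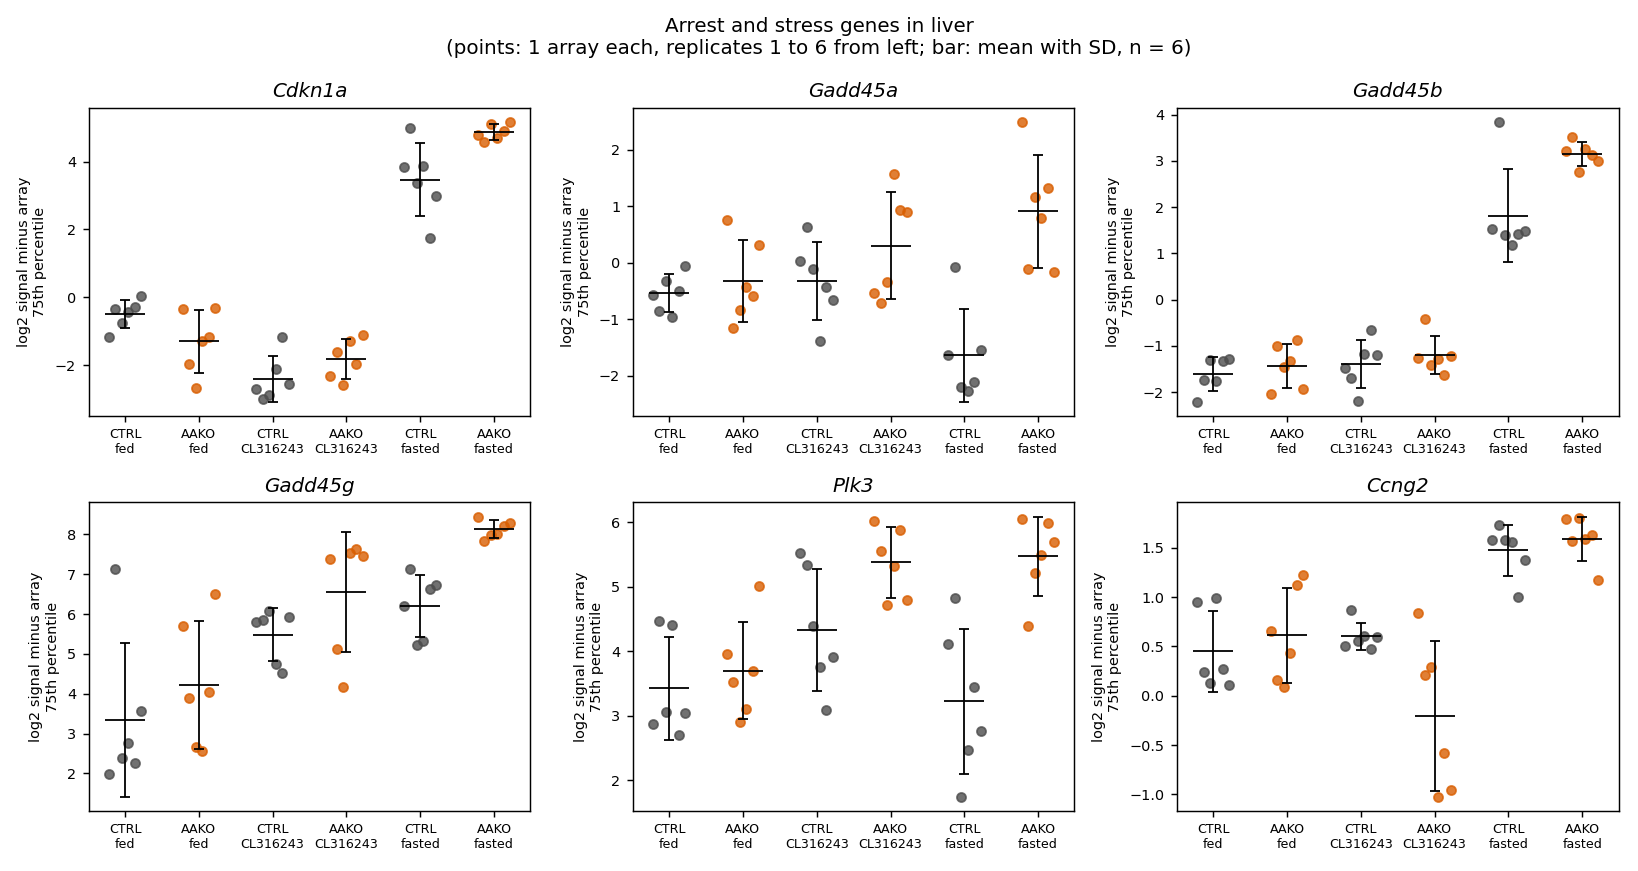
Levels of Cdkn1a, Gadd45a, Gadd45b, Gadd45g, Plk3 and Ccng2 (vertical, log2 relative to the array's 75th percentile) in the 6 groups (horizontal); each point is 1 mouse, and bars are the mean ± SD of 6. Fasted AAKO arrays of Cdkn1a sit between 4.57 and 5.18, and Gadd45a fasted CTRL arrays sit low except replicate 2 at -0.08.

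Plk3 encodes a polo-like kinase of the stress response. In CTRL it lay at 2.70, 3.05 and 4.46 when fed and at 1.75, 3.11 and 4.82 when fasted, which overlapped (-0.20, limma adjusted p = 0.761). In AAKO it went from 2.90, 3.60 and 5.02 to 4.40, 5.59 and 6.06 (1.77, limma adjusted p = 0.00104). The interaction was 1.97 ± 0.64 (limma adjusted p = 0.017), and fasted AAKO mice were 4.75-fold above fasted CTRL mice (2.25 ± 0.45, adjusted p = 0.000116). The fasted genotypes overlapped only through CTRL replicate 2, the highest CTRL array. After CL316243 Plk3 was at 3.09, 4.15 and 5.52 in CTRL and at 4.71, 5.43 and 6.02 in AAKO, a difference of 1.09 ± 0.46 that was not called (limma adjusted p = 0.0797). Plk2, a related kinase, was 0.63 lower after CL316243 than in fed AAKO mice, without overlap (limma adjusted p = 0.00536), and its fasted genotype difference was -0.02.

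Ccng2 encodes cyclin G2, an atypical cyclin found in resting and arrested cells. Fasting raised it in both genotypes, by 1.02 ± 0.24 in CTRL (limma adjusted p = 0.000914) and 0.98 in AAKO (adjusted p = 0.00082). CTRL arrays went from 0.11, 0.26 and 0.99 to 1.01, 1.57 and 1.73, and AAKO arrays from 0.09, 0.54 and 1.23 to 1.18, 1.61 and 1.80. The interaction with fasting was -0.05 ± 0.35 (limma adjusted p = 0.937). After CL316243 the genotypes parted, with CTRL at 0.47, 0.58 and 0.87 and AAKO at -1.03, -0.18 and 0.84. This overlapping difference of -0.80 ± 0.25 (limma adjusted p = 0.0161) lost its call without AAKO CL316243 replicate 4 (-0.60, adjusted p = 0.0741) or 6 (-0.65, adjusted p = 0.0548).

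The CDK inhibitors beside Cdkn1a moved little. Cdkn1b, which encodes p27, was at 1.91, 2.08 and 2.16 in fasted CTRL mice and at 2.39, 2.47 and 2.55 in fasted AAKO mice. These did not overlap (0.41 ± 0.09, limma adjusted p = 0.000301). It was also higher in AAKO after CL316243 (0.33, limma adjusted p = 0.00827), the only member that was higher there. Cdkn2c, which encodes the CDK4 and CDK6 inhibitor p18, rose on fasting by 0.37 in CTRL (limma adjusted p = 0.0188) and 0.40 in AAKO (adjusted p = 0.00627).

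Wee1 encodes the kinase that holds CDK1 inactive before mitosis, and its gene is also under control of the circadian clock in liver. It showed the largest genotype difference of the 39 tested members, and the largest change of that difference between fasting and agonist. Fed arrays lay at 0.40, 1.12 and 1.27 in CTRL and 0.47, 0.93 and 1.07 in AAKO. After CL316243 CTRL arrays lay at -0.90, 0.05 and 0.37 and AAKO arrays at -3.43, -2.74 and -1.79, with no overlap. AAKO was thus 6.03-fold lower (-2.59 ± 0.23, limma adjusted p = 1.87e-09). When fasted the order was the reverse, with CTRL at -1.26, -1.08 and -0.26 and AAKO at -0.65, -0.14 and 0.23 (0.79 ± 0.23, limma adjusted p = 0.00528, overlapping). The genotype difference changed by 3.38 ± 0.33 between the conditions (10.4-fold, limma adjusted p = 1.08e-08). A second, dimmer probe of Wee1 gave -2.17 after CL316243 and 0.28 when fasted.

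Against fed mice Wee1 was lower in all 4 treated groups, without overlap. The differences were -1.95 (limma adjusted p = 3.64e-08) for CTRL fasted and -1.01 (adjusted p = 0.00181) for CTRL given CL316243. In AAKO they were -1.03 when fasted (limma adjusted p = 0.00027) and -3.47, or 11.1-fold, with CL316243 (adjusted p = 4.89e-12). The interaction with fasting (0.92 ± 0.33, limma adjusted p = 0.0295) lost its call without AAKO fasted replicate 3 (0.83, adjusted p = 0.057), AAKO fed replicate 6 (0.83, adjusted p = 0.0567) or CTRL fasted replicate 4 (0.85, adjusted p = 0.0552).

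Clock genes were set beside Wee1 for that reason. Of 13 tested, 10 were higher and 0 lower in fasted AAKO than in fasted CTRL mice, with a median of 1.21, led by the clock repressor Ciart (3.41 ± 0.53, limma adjusted p = 2.78e-06). Of all genes 21.9% were higher and 27.3% lower in that comparison. After CL316243, 0 were higher and 2 lower in AAKO, with a median of -0.23, led by Per3 (-0.94, limma adjusted p = 0.0322). That was 15.4% of the list called, below the 24.6% of all genes, and 11.6% of all genes were lower. The change of the genotype difference between the conditions was called upward for 8 clock genes and downward for 0 (13.3% and 18.5% of all genes). Livers were taken at 1 Zeitgeber time, and the part of clock phase in the Wee1 result was not tested.

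**Figure D3:**
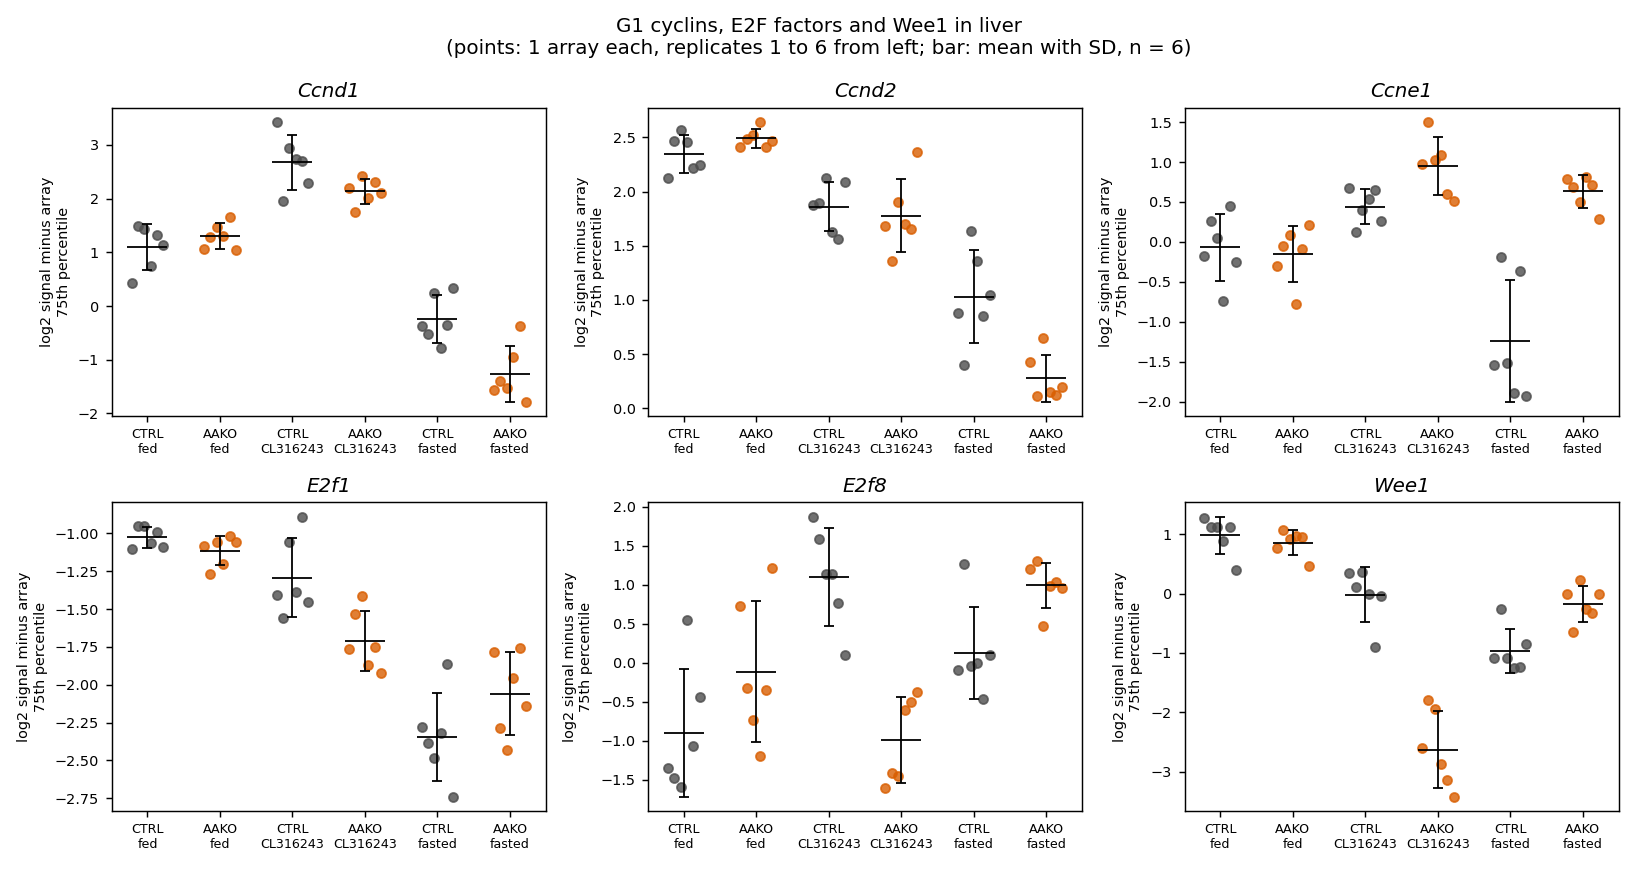
Levels of Ccnd1, Ccnd2, Ccne1, E2f1, E2f8 and Wee1 (vertical, log2 relative to the array's 75th percentile) in the 6 groups (horizontal); points are mice, and bars are the mean ± SD of 6. Wee1 in AAKO given CL316243 lies between -3.43 and -1.79, below every other array, and E2f8 in that group lies between -1.60 and -0.37.

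The G1 cyclins went separate ways. Of the 7 tested G1 cyclins and kinases, 1 was higher and 4 were lower in fasted AAKO than in fasted CTRL mice, and 0 were higher and 2 lower in AAKO after CL316243. Of all genes 21.9% were higher and 27.3% lower when fasted, and 13% and 11.6% after CL316243. Ccnd1 and Ccnd2 fell on fasting in both genotypes, Ccnd1 rose with CL316243, and Ccne1 was the member higher in fasted AAKO mice.

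Ccnd1 encodes cyclin D1, the partner of CDK4 and CDK6 that mitogens induce. It lay at 0.43, 1.23 and 1.50 in CTRL fed mice, at -0.78, -0.37 and 0.34 when fasted and at 1.96, 2.72 and 3.44 after CL316243. The 3 CTRL conditions did not overlap. Fasting lowered it by 1.34 on the log2 scale (-1.34 ± 0.23, limma adjusted p = 2.02e-05), and CL316243 raised it 2.99-fold (1.58, adjusted p = 9.86e-06). In AAKO the levels were 1.05, 1.30 and 1.66 when fed, -1.78, -1.46 and -0.37 when fasted and 1.76, 2.15 and 2.42 after CL316243, again without overlap. The AAKO fall on fasting was 5.94-fold (-2.57, limma adjusted p = 3.51e-11), larger than in CTRL by the interaction (-1.23 ± 0.33, adjusted p = 0.00418). Fasted mice were 7.57-fold below agonist-treated mice in CTRL (-2.92, limma adjusted p = 3.98e-11) and 10.5-fold in AAKO (-3.40, adjusted p = 1.33e-13). Between the genotypes Ccnd1 was lower in AAKO when fasted (-1.02 ± 0.23, limma adjusted p = 0.000507), while the difference after CL316243 was not called (-0.55 ± 0.24, adjusted p = 0.0906).

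Ccnd2, which encodes cyclin D2, fell on fasting like Ccnd1 but did not rise with CL316243. CTRL arrays lay at 2.13, 2.35 and 2.57 when fed, 0.40, 0.96 and 1.64 when fasted and 1.56, 1.88 and 2.12 after CL316243. AAKO arrays lay at 2.41, 2.48 and 2.65, at 0.11, 0.17 and 0.65, and at 1.36, 1.69 and 2.37 in the same order. The fall on fasting was -1.32 in CTRL (limma adjusted p = 2.57e-08) and -2.22, or 4.65-fold, in AAKO (adjusted p = 8.62e-14), with an interaction of -0.90 ± 0.22 (adjusted p = 0.00162). With CL316243 it was lower than fed by 0.73 in AAKO (-0.73, limma adjusted p = 0.000488). The CTRL difference of -0.48 (limma adjusted p = 0.0214) lost its call without CTRL CL316243 replicate 4 (-0.43, adjusted p = 0.0581) or 5 (-0.41, adjusted p = 0.0634) or CTRL fed replicate 3 (-0.45, adjusted p = 0.0511). Ccnd3, which encodes the third D-type cyclin, rose slightly on fasting, by 0.22 in CTRL (limma adjusted p = 0.0104) and 0.19 in AAKO (adjusted p = 0.0192).

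Ccne1 encodes cyclin E1, the CDK2 partner that E2F induces at the entry to S phase. Fasting moved it in opposite directions in the 2 genotypes. In CTRL it went from -0.74, -0.07 and 0.45 to -1.93, -1.53 and -0.19 (-1.17 ± 0.24, limma adjusted p = 0.000172). In AAKO it went from -0.78, -0.08 and 0.22 to 0.29, 0.70 and 0.81 (0.79, limma adjusted p = 0.00508), with no overlap. Fasted AAKO arrays all lay above fasted CTRL arrays, by 3.65-fold (1.87 ± 0.24, limma adjusted p = 1.14e-07), and the interaction was 1.95 ± 0.34 (adjusted p = 3.85e-05). With CL316243 CTRL arrays lay at 0.13, 0.47 and 0.68 and AAKO arrays at 0.51, 1.00 and 1.51, which overlapped (0.53, limma adjusted p = 0.109). Ccne2, which encodes cyclin E2, was not well above background on any of 36 arrays.

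Among the kinases, Cdk6 differed between the genotypes in both treated states. Its levels were 1.64, 2.16 and 2.32 in fasted CTRL mice and 0.80, 1.07 and 1.14 in fasted AAKO mice, without overlap (2.06-fold, -1.04 ± 0.11, limma adjusted p = 1.55e-09). Agonist-treated CTRL mice had 1.88, 1.99 and 2.25 and agonist-treated AAKO mice 1.06, 1.49 and 1.72, again without overlap (-0.57 ± 0.11, limma adjusted p = 0.000144). Its other 2 probes were also lower in AAKO, by -0.67 and -0.23 when fasted and by -0.65 and -0.35 after CL316243. Cdk2, the partner of cyclin E, was lower in AAKO after CL316243 (-0.53 ± 0.11, limma adjusted p = 0.000504). Cdk4 was lower in AAKO when fasted by a small amount (-0.21, limma adjusted p = 0.00606).

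The 2 E2F factors have opposite roles, E2f1 encoding an activator of replication genes and E2f8 an atypical repressor. E2f1 was narrow within groups, at -1.10, -1.03 and -0.95 in CTRL fed and -2.74, -2.35 and -1.86 in CTRL fasted mice, a fall of 2.5-fold without overlap (-1.32 ± 0.12, limma adjusted p = 3.39e-10). In AAKO it went from -1.26, -1.07 and -1.02 to -2.43, -2.05 and -1.75 (-0.95, limma adjusted p = 5.67e-08), also without overlap. After CL316243 it was at -1.56, -1.40 and -0.89 in CTRL and -1.92, -1.76 and -1.41 in AAKO (-0.41 ± 0.12, limma adjusted p = 0.0153, overlapping). The fasted genotype difference was 0.29 and not called (limma adjusted p = 0.0547).

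E2f8 had its highest CTRL levels after CL316243. CTRL arrays lay at -1.60, -1.21 and 0.55 when fed, -0.47, -0.02 and 1.26 when fasted and 0.10, 1.14 and 1.87 after CL316243. AAKO arrays lay at -1.20, -0.34 and 1.21, at 0.47, 1.01 and 1.31, and at -1.60, -1.01 and -0.37 in the same order. AAKO was 4.13-fold lower than CTRL after CL316243, without overlap (-2.05 ± 0.37, limma adjusted p = 8.62e-05), and CL316243 raised the gene 4-fold in CTRL (2.00, adjusted p = 0.000141). The genotype difference changed by 2.91 ± 0.52 between fasting and CL316243 (limma adjusted p = 5.64e-05). In fasted mice AAKO was 0.87 ± 0.36 higher (limma adjusted p = 0.0488), a call lost on leaving out any of 10 of the 12 arrays (adjusted p from 0.0157 to 0.102 over the 12). The fasting response of CTRL (1.02, limma adjusted p = 0.0222) was lost without CTRL fasted replicate 2 (0.82, adjusted p = 0.0765) or CTRL fed replicate 1 (0.90, adjusted p = 0.0586), 2 (0.93, adjusted p = 0.0515) or 3 (0.91, adjusted p = 0.0567). A second probe of E2f8 gave -2.82 for the genotypes after CL316243, and the third, dimmer probe gave -0.48.

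The 10 genes of the replicative helicase and nucleotide supply were, where they differed, mostly higher in AAKO when fasted and lower in AAKO after CL316243. In fasted mice 6 were higher and 1 lower in AAKO (median 0.31), and after CL316243 0 were higher and 4 lower (median -0.41). In CTRL, fasted mice were lower than agonist-treated mice for 7 and higher for 0 (median -0.53), against 3 higher and 2 lower in AAKO. The change of the genotype difference between the conditions was called upward for 7 and downward for 0 (median 0.66). Of all genes 21.9% were higher and 27.3% lower in AAKO when fasted, and 13% and 11.6% after CL316243. For fasting against CL316243, 17.8% were higher and 19.3% lower in CTRL, and 25.9% and 34.1% in AAKO. The genotype difference changed upward for 13.3% and downward for 18.5% of all genes.

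Mcm2, Mcm3 and Mcm5 encode subunits of the MCM helicase, which opens DNA at replication origins. Mcm3 was at -0.52, -0.44 and -0.20 in fasted CTRL and 0.08, 0.37 and 0.68 in fasted AAKO mice, and at -0.01, 0.10 and 0.44 in CTRL and -0.56, -0.37 and -0.09 in AAKO after CL316243. The genotypes did not overlap in either state, and their order was reversed: 0.74 ± 0.15 when fasted (limma adjusted p = 0.000101) and -0.49 ± 0.15 after CL316243 (adjusted p = 0.0152). The change between the states was 1.23 ± 0.21 (limma adjusted p = 3.47e-05). The other 3 probes of Mcm3 gave 0.61 to 0.71 when fasted and -0.71 to -0.50 after CL316243. In fed mice Mcm3 lay at -0.85, -0.04 and 0.46 in CTRL and at -0.47, -0.07 and 0.16 in AAKO.

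Mcm5 lay at -2.69, -1.70 and -1.03 in CTRL fed, -3.98, -3.30 and -3.06 in CTRL fasted and -2.20, -1.92 and -0.86 in CTRL agonist-treated mice. Fasted CTRL arrays were below all other CTRL arrays, by 2.92-fold against fed (-1.55, limma adjusted p = 2.84e-06) and 3.09-fold against CL316243 (-1.63, adjusted p = 1.94e-06). In AAKO the levels were -2.66, -2.07 and -1.39 when fed, -3.32, -2.77 and -2.32 when fasted and -2.74, -2.45 and -2.09 after CL316243. Fasted AAKO was higher than fasted CTRL by 0.64 ± 0.24 (limma adjusted p = 0.0261), a call lost without AAKO fasted replicate 4 or 5 (0.60 and 0.56) or CTRL fasted replicate 1 or 4 (0.51 and 0.59, largest adjusted p = 0.0869). After CL316243 AAKO was lower (-0.66 ± 0.24, limma adjusted p = 0.0419), a call lost without AAKO CL316243 replicate 2, 4 or 5 (-0.62, -0.58 and -0.61) or CTRL CL316243 replicate 1, 2 or 5 (-0.49, -0.68 and -0.65, largest adjusted p = 0.131). After normexp background correction these differences were 0.17 and -0.28, and neither was called (limma adjusted p = 0.223 and 0.0712). The change of the genotype difference was 1.30 ± 0.34 (limma adjusted p = 0.00345).

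Mcm2 was called between the genotypes after CL316243. CTRL arrays then lay at -1.97, -1.77 and -1.04 and AAKO arrays at -3.23, -2.60 and -2.50, without overlap (2.11-fold, -1.08 ± 0.19, limma adjusted p = 5.63e-05). When fasted they lay at -2.60, -2.21 and -1.84 in CTRL and -3.05, -2.44 and -2.13 in AAKO, which overlapped (-0.30, limma adjusted p = 0.188). Fed arrays lay at -2.38, -2.24 and -1.53 in CTRL and -2.79, -2.28 and -1.80 in AAKO. The interaction with CL316243 was -0.93 ± 0.26 (limma adjusted p = 0.0178). The change of the genotype difference from CL316243 to fasting (0.78, limma adjusted p = 0.0228) lost its call without AAKO CL316243 replicate 4 (0.67, adjusted p = 0.0536). Fasted CTRL mice were lower than agonist-treated CTRL mice (-0.52, limma adjusted p = 0.0274). That call was lost without CTRL fasted replicate 1 (-0.48, adjusted p = 0.0575) or 2 (-0.44, adjusted p = 0.0804) or CTRL CL316243 replicate 1 (-0.38, adjusted p = 0.1).

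Rrm2 encodes the small subunit of ribonucleotide reductase, which makes deoxynucleotides. It lay at 1.62, 1.93 and 2.55 in CTRL fed and 1.65, 2.05 and 2.49 in AAKO fed mice. Fasted arrays lay at 1.08, 1.85 and 2.43 in CTRL and 2.15, 2.61 and 2.75 in AAKO, and agonist-treated arrays at 0.92, 1.74 and 2.36 in CTRL and -0.08, 1.15 and 2.01 in AAKO. In AAKO all fasted arrays were above all agonist-treated arrays (1.57 ± 0.27, limma adjusted p = 6.27e-06), while in CTRL these groups overlapped (0.19, adjusted p = 0.627), and the genotype difference changed by 1.38 ± 0.38 (adjusted p = 0.00486). The fasted genotype difference (0.69 ± 0.27, limma adjusted p = 0.0316) lost its call without AAKO fasted replicate 2, 3, 4 or 6 or CTRL fasted replicate 4 or 5 (values of 0.53 to 0.67, largest adjusted p = 0.104).

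Other members of the group moved less. Pcna, the sliding clamp of the replication fork, was higher in AAKO when fasted by 0.30 ± 0.07 (limma adjusted p = 0.000695). Tyms, which encodes thymidylate synthase, was lower in AAKO when fasted (-0.53 ± 0.09, limma adjusted p = 9.91e-06), without overlap, and after CL316243 (-0.35, adjusted p = 0.00418). Fasting lowered Tyms by 0.82 in CTRL (-0.82, limma adjusted p = 6.89e-09) and 1.19 in AAKO (-1.19, adjusted p = 4.66e-13), but 1 of its 3 probes went the other way on fasting (0.24 and 0.37). Mcm7, another helicase subunit, rose on fasting in CTRL (0.48, limma adjusted p = 0.000177), whereas Mcm4 and Mcm6 fell (-0.51, adjusted p = 0.00439, and -1.04, adjusted p = 0.000106).

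Most of the 10 tested genes of proliferation and mitosis were lower in fasted than in agonist-treated CTRL mice. Fasted CTRL mice were lower than agonist-treated CTRL mice for 8 and higher for 0, with a median of -0.71. Of all genes 19.3% were lower and 17.8% higher. In AAKO the same comparison called 3 lower and 0 higher (34.1% and 25.9% of all genes). Between the genotypes 3 were higher in AAKO when fasted and 0 lower (21.9% and 27.3% of all genes). After CL316243 1 was lower in AAKO, near the 11.6% of all genes. One of the 10, Aurkb, named here after its values were seen, passed the filter on dim probes only through agonist-treated CTRL (6 of 6 arrays) and fasted AAKO mice (5 of 6), its brightest groups. Without it, 7 of 9 were lower in fasted than in agonist-treated CTRL mice. In fasted AAKO 2 of 9 were higher than in fasted CTRL mice, near the 21.9% of all genes. Of these 9 members 5 had both their highest mean in agonist-treated CTRL and their lowest in fasted CTRL mice, a count not made for all genes.

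Aurka encodes the Aurora A kinase of the mitotic spindle. Its levels were -1.63, -1.26 and -0.99 in CTRL fed, -2.79, -2.46 and -2.14 in CTRL fasted and -1.28, -1.03 and -0.45 in CTRL agonist-treated mice. Fasted arrays lay below both other groups, by 2.3-fold against fed (-1.20, limma adjusted p = 1.77e-07) and 2.83-fold against CL316243 (-1.50, adjusted p = 5.69e-09). In AAKO the levels were -1.90, -1.49 and -1.46 when fed, -2.96, -2.63 and -2.40 when fasted and -2.48, -1.79 and -1.47 after CL316243. All AAKO agonist-treated arrays lay below all CTRL ones (1.86-fold, -0.90 ± 0.16, limma adjusted p = 6.62e-05), while fasted arrays overlapped (-0.17, adjusted p = 0.38).

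Cdc20 encodes the activator of the anaphase-promoting complex. It was at -2.97, -2.64 and -2.45 in CTRL fasted and -2.16, -1.48 and 0.03 in CTRL agonist-treated mice, without overlap (-1.36, limma adjusted p = 2.87e-05). In AAKO it was at -2.92, -2.51 and -2.36 and at -2.30, -1.35 and -0.87, also without overlap (-1.12, limma adjusted p = 0.000158). Fed medians lay between these, in arrays at -2.37, -2.08 and -1.76 in CTRL and -2.38, -2.10 and -1.77 in AAKO. The CTRL rise with CL316243 over fed (0.75 ± 0.24, limma adjusted p = 0.0214) lost its call without CTRL CL316243 replicate 4 (0.47, adjusted p = 0.0849) or CTRL fed replicate 1 (0.70, adjusted p = 0.0512) or 3 (0.69, adjusted p = 0.0503). The CTRL fall on fasting (-0.61, limma adjusted p = 0.0366) was lost without either of CTRL fasted replicates 1 and 2 (-0.56 each) or any of CTRL fed replicates 2, 4, 5 and 6 (-0.60, -0.62, -0.55 and -0.58, largest adjusted p = 0.0828). Cdc20 did not differ between the genotypes by the test in any condition.

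Mki67 and Top2a are the usual marks of dividing cells. Mki67 encodes the Ki-67 protein, and lay at -2.66, -1.81 and -1.52 in CTRL fed, -2.81, -2.34 and -1.63 in CTRL fasted and -2.30, -1.50 and -0.76 in CTRL agonist-treated mice. In AAKO it lay at -2.01, -1.75 and -1.52, at -2.26, -1.90 and -1.51, and at -2.82, -2.06 and -1.39. These ranges overlap throughout, and no genotype difference was called (0.45 ± 0.24 when fasted, limma adjusted p = 0.126). The CTRL contrast of fasting with CL316243 (-0.74 ± 0.24, limma adjusted p = 0.0158) lost its call without CTRL CL316243 replicate 4 (-0.57, adjusted p = 0.0623).

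Top2a encodes the topoisomerase that untangles chromosomes. Its CTRL levels were -3.71, -3.22 and -2.71 when fed, -5.58, -4.69 and -4.01 when fasted and -4.12, -3.26 and -2.22 after CL316243, and its AAKO levels were -3.49, -3.20 and -2.95, then -5.09, -3.88 and -3.25, then -4.02, -3.62 and -2.81. It fell on fasting in CTRL without overlap (-1.43, limma adjusted p = 0.000123). The AAKO fall (-0.73, limma adjusted p = 0.0261) was lost without AAKO fasted replicate 6 (-0.51, adjusted p = 0.11) or AAKO fed replicate 1 (-0.68, adjusted p = 0.0521). Its fasted genotype difference (0.70 ± 0.29, limma adjusted p = 0.0416) was lost on leaving out any of AAKO fasted replicates 1 to 5 or CTRL fasted replicates 1, 4 and 6 (values of 0.50 to 0.72, largest adjusted p = 0.15), and it was 0.09 after normexp background correction (adjusted p = 0.407).

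Cdk1, the kinase that mitotic cyclins activate, was well above background on 9 of 36 arrays: 3 CTRL fed, 3 AAKO fed, 2 CTRL and 1 AAKO given CL316243, and 0 fasted. Bub1, a checkpoint kinase, was so on 3 arrays. Ccna2, which encodes cyclin A2, was higher in fasted AAKO (-2.72, -2.34 and -2.12) than in fasted CTRL (-3.23, -3.01 and -2.81) without overlap (0.65 ± 0.18, limma adjusted p = 0.00291). Ccnb2, a cyclin of CDK1, fell on fasting in CTRL (-0.77, limma adjusted p = 0.0017) and AAKO (-1.11, adjusted p = 8.31e-06), without overlap in either.

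**Figure D4:**
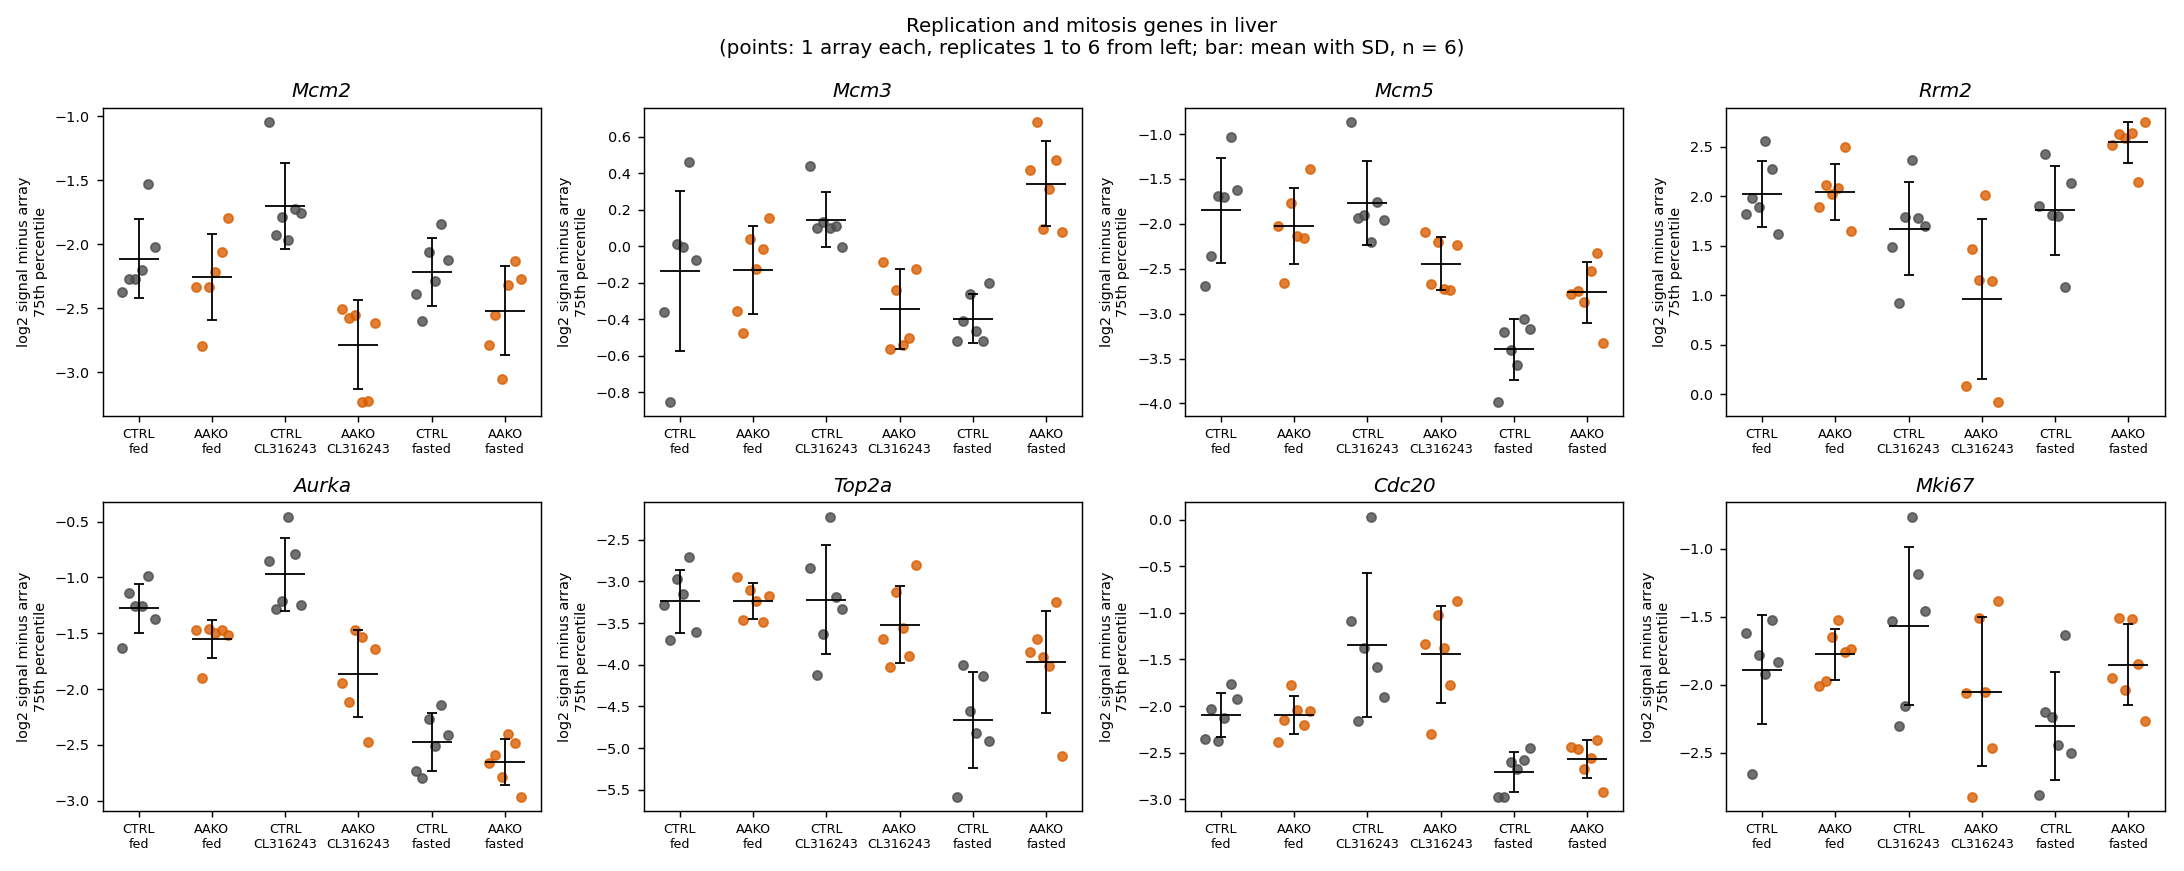
Levels of Mcm2, Mcm3, Mcm5, Rrm2, Aurka, Top2a, Cdc20 and Mki67 (vertical, log2 relative to the array's 75th percentile) in the 6 groups (horizontal); points are mice, and bars are the mean ± SD of 6. Fasted CTRL arrays of Mcm5 (-3.98 to -3.06) and Aurka (-2.79 to -2.14) lie below those of the other CTRL groups, and Mki67 overlaps between all groups.

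Markers of other cells moved with some of these groups. Of 8 neutrophil markers 4 were higher in fasted AAKO than in fasted CTRL mice, led by S100a8 (3.62 ± 1.02, limma adjusted p = 0.0036), while Mpo (-0.10, adjusted p = 0.796) and Camp (0.70, adjusted p = 0.155) were not called. Their summed signal was 10.96 to 127.1 times the 75th percentile in AAKO fasted arrays, 81.69 in CTRL fasted replicate 2 and 2.577 to 13.52 in the other CTRL fasted arrays. After CL316243 it was 2.57 to 7.23 in CTRL and 4.622 to 12.45 in AAKO, where Ngp and Ltf were not well above background. Kupffer cell markers were lower after CL316243 than in fed mice for 4 of 7 in CTRL and 6 of 7 in AAKO, and endothelial markers for 5 of 6 in CTRL and 3 of 6 in AAKO. Kupffer cell markers were also lower in fasted than in fed mice, for 2 of 7 in CTRL and 4 of 7 in AAKO (24.1% and 36.1% of all genes). Between fasted and agonist-treated mice 0 of 7 were called in either genotype (37.1% and 60% of all genes). Against fed mice, condition and experiment cannot be told apart. Between fasted genotypes AAKO was higher for 3 of 6 endothelial and 2 of 6 stellate markers, lower for 2 of 6 tested T and NK cell markers and 2 of 5 cholangiocyte markers, and higher for 2 and lower for 4 of 7 hepatocyte markers. The T and NK cell sum was 45.4 to 53.8 in AAKO fasted, 65.0 to 82.3 in CTRL fasted and 29.4 to 65.5 in all other arrays. Fasted CTRL mice were above agonist-treated CTRL mice for 4 of 6 endothelial and 3 of 6 tested erythroid markers, and below them for 1 erythroid marker. Erythroid markers summed to 241.5 to 381.6 in AAKO fasted and 301.3 to 638.4 in CTRL fasted arrays. Of all genes 12.7% in CTRL and 15.9% in AAKO were lower after CL316243 than when fed. Between fasted genotypes 21.9% of all genes were higher and 27.3% lower in AAKO. Against agonist-treated CTRL mice, fasted CTRL mice were higher for 17.8% and lower for 19.3% of all genes. The part of the cell types named here in the results on the members was not tested.

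Other genes of the same pathways also leaned downward in fasted against agonist-treated CTRL mice. Their lists were drawn up by function with earlier results of these data known, so they are no independent test of the members. Of 36 further replication genes, 1 was higher and 22 lower in fasted than in agonist-treated CTRL mice (median -0.45), led by the initiation factor Mcm10 (-1.74, limma adjusted p = 1.47e-06). Of 29 further mitotic genes, 4 were higher and 17 lower (median -0.59), led by the spindle gene Aspm (-1.90, limma adjusted p = 3.32e-05). In this contrast 17.8% of all genes were higher and 19.3% lower. Between the genotypes 11 of the further replication genes were higher and 8 lower in AAKO when fasted (median 0.03), and 4 were higher and 9 lower after CL316243 (median -0.15, against 0.03 for all genes). Of all genes 21.9% were higher and 27.3% lower when fasted, and 13% and 11.6% after CL316243. Chaf1b, a histone chaperone of replication, led when fasted (2.48, limma adjusted p = 3.49e-12), and Chaf1a, its partner, after CL316243 (-0.89, adjusted p = 0.00141).

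Further mitotic genes were higher in AAKO for 6 and lower for 7 when fasted, and higher for 2 and lower for 5 after CL316243. The kinetochore gene Spc25 led in both, lower in AAKO by -1.50 (limma adjusted p = 7.15e-09) and -1.79 (adjusted p = 2.89e-09). Of 24 further regulators of CDKs, 7 were higher and 6 lower in AAKO when fasted, led by the checkpoint kinase gene Chek1 (2.89, limma adjusted p = 7.57e-10). The fasted counts of the mitotic genes and CDK regulators were near the shares of all genes (21.9% higher and 27.3% lower). Of 14 further p53 targets, 7 were higher and 2 lower in AAKO when fasted (median 0.39), led by Sesn1, a stress-induced sestrin (3.70, limma adjusted p = 4.67e-12). After CL316243, 1 of these targets was higher and 2 were lower. In that state 13% of all genes were higher and 11.6% lower in AAKO, shares that apply to the mitotic counts above as well.

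Finally the genotype differences of the 2 treated states, which share no arrays, were set side by side for each member. Of the 23 members called when fasted and the 12 called after CL316243, 7 were called in both. Of all genes 49.2% and 24.6% were called in these contrasts. The share of all genes called in both, or in opposite directions, was not counted, so neither count is read as particular to the members. Of the 7 members, 4 went in opposite directions: Wee1, E2f8, Mcm3 and Mcm5 were each higher in AAKO when fasted and lower after CL316243. The count was 2, Wee1 and Mcm3, without AAKO fasted replicate 4 or 5 or CTRL fasted replicate 1 or 4, and 2 to 5 over all arrays left out. The other 3 kept their direction, with Cdkn1b higher and Tyms and Cdk6 lower in AAKO in both. Tested directly, the genotype difference changed between the conditions for 20 members, 18 upward. Beside Wee1, E2f8, Rrm2, Mcm5 and Mcm3 these included Gadd45a (1.83 ± 0.58, limma adjusted p = 0.0144), Ccne1 (1.34, adjusted p = 0.00286) and Aurka (0.72, adjusted p = 0.0122). The 2 in the other direction were Ccnd2 (-0.66, limma adjusted p = 0.0204) and Cdk6 (-0.47, adjusted p = 0.0168; -0.02 and 0.12 at its other probes). Cdkn1a was not among them (0.77, limma adjusted p = 0.323). Without CTRL fasted replicate 2 the count was 21.

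**Figure D5:**
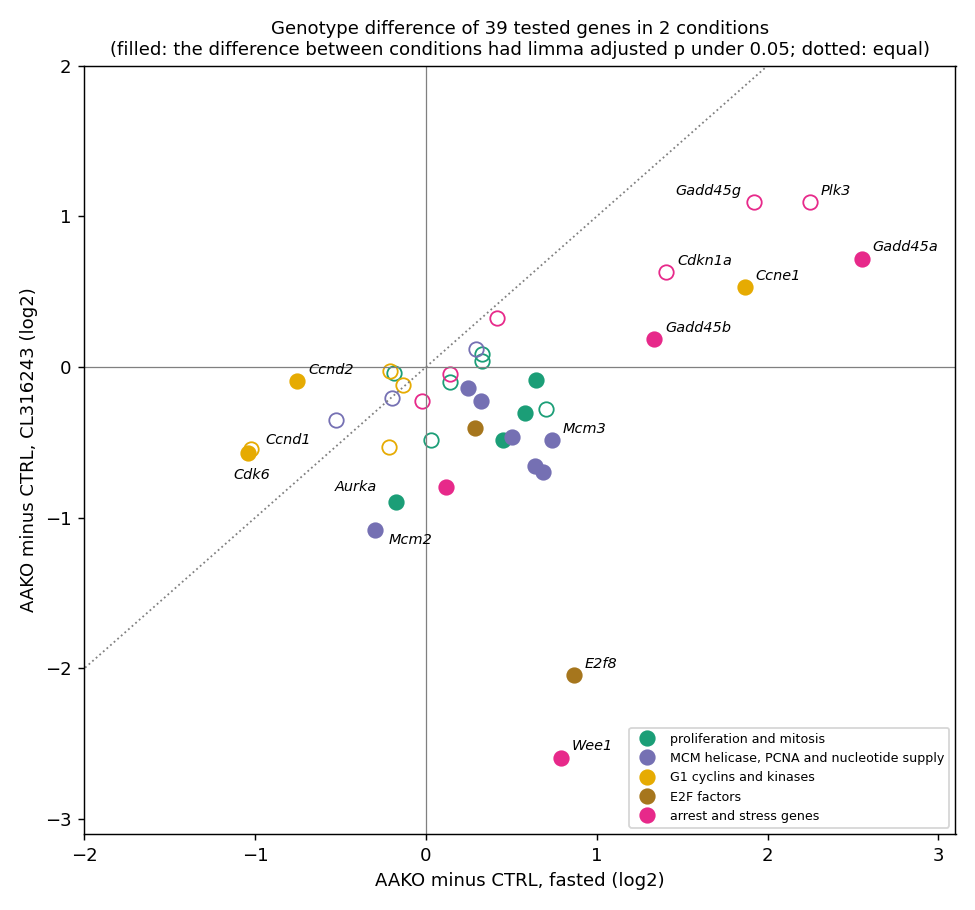
Log2 difference of AAKO from CTRL when fasted (horizontal) against that after CL316243 (vertical) for the 39 tested members, by role; filled points are members whose difference changed between the conditions (limma adjusted p under 0.05), and the dotted line marks equal differences. Wee1 lies farthest below the line (0.79 when fasted, -2.59 after CL316243), followed by E2f8 (0.87 and -2.05).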

How the data were processed

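Liver RNA of 36 mice was hybridised to 1-colour arrays, 6 per group. Per the file headers, the deposited spot intensity values came from Agilent Feature Extraction 10.10.1.1 for array design 074809, with probe positions on mm9, and the processed signal intensity had its background subtracted. The authors also deposited a table of log2 values for 36898 probes. Its sorted values were identical within each group, and its normalization is not given in the sources used here. It served as an alternative.

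From the processed signal, log2 was taken and the log2 of the array's 75th percentile over non-control probes subtracted. Outlier spots (2701, 0.127%) were left out, and repeat spots of a probe averaged. Tested genes (24102) had a probe that stood well above background on 5 or 6 of the 6 arrays in some group. Every array entered 1 limma fit (limma 3.58.1, R 4.3.3, version 1.17.8 of data.table) with 6 group means and wash batch, and 12 contrasts were adjusted by Benjamini-Hochberg over all genes. Tests were two-sided. Each array is 1 mouse, and the number of arrays limits the precision. The steps were checked on simulated data.

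The members and the lists of other genes were chosen with earlier results of these data known. Named in full were the 16 members with the largest called differences, Mki67, Top2a and Cdk1, and up to 6 called members per genotype contrast. Replicate numbers did not pair the arrays: over 90 pairs of same-numbered arrays the mean correlation of deviations was -0.000786 (-0.304 to 0.361). Probe positions were not compared with the GRCm38.p6 promoters. Alternatives were other backgrounds, scalings, filters, probe choices, batch terms and single arrays left out.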

Additional observations from a re-analysis of the deposited data

Results flagged for a closer look

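Single arrays stood apart from the rest of their group of 6 by Dixon's gap test at its 95% critical value in 14 of 114 tests over the genes described in full, where chance gives about 1 in 20. In CTRL fasted mice replicate 2 was such an array for Gadd45a (-0.0799), Gadd45b (3.85) and E2f8 (1.26), each the highest of its group. CTRL fed replicate 2 was the highest for Gadd45g (7.13) and the lowest for Mki67 (-2.66). CTRL CL316243 replicate 1 was the highest for Mcm2 (-1.04) and Mcm5 (-0.86), replicate 2 the highest for Ccng2 (0.87), and replicate 5 the lowest for Wee1 (-0.90). AAKO fed replicate 2 was the lowest for Aurka (-1.90) and for Cdk1 (-6.27), which was not well above background on most arrays. AAKO fasted replicate 6 was the lowest for Ccng2 (1.18). AAKO CL316243 replicate 2 was the highest for Gadd45b (-0.43), and replicate 6 the highest for Cdk1 (-4.39).

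The genotype difference itself depended on the condition in 23 tests of these genes, by limma at an adjusted p under 0.05. For fasting against fed the change of the difference was 2.33 for Gadd45a, 2.20 for Cdkn1a, 1.97 for Plk3, 1.95 for Ccne1, 1.17 for Gadd45b, 0.92 for Wee1, -0.90 for Ccnd2 and -1.23 for Ccnd1. For CL316243 against fed it was -2.83 for E2f8, -2.46 for Wee1 and -0.93 for Mcm2. For fasting against CL316243 it was 3.38 for Wee1, 2.91 for E2f8, 1.83 for Gadd45a, 1.38 for Rrm2, 1.34 for Ccne1, 1.30 for Mcm5, 1.15 for Gadd45b, 0.93 for Mki67, 0.92 for Ccng2, 0.78 for Mcm2, 0.72 for Aurka and -0.66 for Ccnd2. Some of these calls were lost on leaving out 1 of the 24 arrays behind them. For fasting against fed this held for 16 arrays for Gadd45b (limma adjusted p up to 0.0814) and 3 for Wee1 (up to 0.057). For fasting against CL316243 it held for 19 arrays for Gadd45b (limma adjusted p up to 0.0964), 15 for Ccng2 (up to 0.104), 10 for Mki67 (up to 0.0841) and 1 for Mcm2 (0.0536).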

How the results depend on the processing

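Of 202 calls of members, 189 held in the same direction after normexp background correction, 200 under quantile normalization, 195 under median scaling, 192 in the authors' value table, 182 with no filter on dim probes, 178 with only the groups compared, 198 without the wash batch, and 181 and 200 with slide as a fixed or random factor. With the mean of all probes 187 held and 2 reversed, neither among the genes described in full; no call reversed elsewhere. With the replicate block 199 held, and the fasted genotype difference of E2f8 (0.87) was lost (limma adjusted p = 0.0583). Only 6 of 36 arrays correlated best with an array of their own number.

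Within wash batch 1 alone, with fewer arrays, the members called numbered 11 between fasted genotypes, 6 between genotypes after CL316243, 12 and 14 for fasting in CTRL and AAKO, 4 for CL316243 in CTRL, 15 for fasting against CL316243 in CTRL, 8 and 1 for the interactions with fasting and CL316243, and 6 for the genotype difference between those conditions. Within wash batch 2 they numbered 4 between genotypes after CL316243, 6 and 4 for CL316243 in CTRL and AAKO, 7 and 2 for the interactions, and 4 for that last difference. The other counts were within 1.5 times. Without CTRL fed replicate 3 the CL316243 count in CTRL was 7.

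Leaving out single arrays gave 0 to 0 members for the fed genotypes, 16 to 24 for the fasted genotypes and 10 to 14 for the genotypes after CL316243. It gave 22 to 25 and 23 to 25 for fasting in CTRL and AAKO, 7 to 14 and 10 to 15 for CL316243, and 26 to 30 and 18 to 20 for fasting against CL316243. It gave 12 to 17 and 5 to 7 for the interactions with fasting and CL316243, and 15 to 21 for the genotype difference between them. Of 112 calls of the genes described in full, 86 held with every array left out, and 24 were lost under at least 1 other setting that kept both wash batches. Between them these 24 calls had limma adjusted p-values of 0.0502 to 0.407 where lost. They were 4 of Mcm2 (CL316243 in AAKO, fasting against CL316243 in CTRL, the interaction with CL316243 and the genotype difference between conditions), 3 each of Ccng2, Cdc20 and E2f8, 2 each of Mcm5 (both genotype differences), Top2a and Gadd45b (both interactions, adjusted p = 0.0547 to 0.0881), and 1 each of Ccnd2, Gadd45a, Gadd45g, Mki67 and Wee1.

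Upward calls for fasting in AAKO made up 65.4% in the authors' deposited values, against 53.8% here, and for fasting against CL316243 in AAKO 66.7% against 55%. Signal over background limits Aurkb (well above it on 26 arrays), Cdk1, Bub1 and Ccne2.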
